A study of Mus musculus with 3 samples.

Results

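Neurotrophins are secreted growth factors that keep neurons alive, shape dendrites and tune synapses, and in the cortex brain-derived neurotrophic factor (Bdnf) is the member best known for responding to neuronal activity. They are made as proneurotrophins and act through the Trk receptor tyrosine kinases and through the p75 neurotrophin receptor, while sortilin binds proneurotrophins and guides their sorting. The footprints of 6 such genes were followed here in cultured neurons: the ligands Bdnf and Ntf3 (neurotrophin 3), the receptors Ntrk2 (TrkB, the Bdnf receptor), Ntrk3 (TrkC, the Ntf3 receptor) and Ngfr (p75 neurotrophin receptor), and Sort1 (sortilin). They were chosen by gene symbol, after the transcript identifiers of the tables had been joined to mouse gene names, and are 6 of the 20823 genes annotated with all 3 regions, the coding sequence (CDS) and both UTRs.

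In ribosome profiling, the pieces of mRNA that ribosomes shield from nuclease are sequenced, so each read, or footprint, marks where a ribosome sat. Primary cortical neurons of CD-1 mouse embryos were left without drug (WT), given cycloheximide (Chx), which stops elongating ribosomes, for 2 min, or given harringtonine (Harr) for 2 min before a pulse of cycloheximide. Harringtonine holds ribosomes at the start of translation and lets elongating ones finish. In each of the 3 treatments 3 dishes were pooled into 1 library, and the buffers used to rinse and lyse the cells held cycloheximide at 100 μg per ml in all of them, WT included. Since each treatment has 1 library, no difference below has a replicate check, no p-value is given, and the 95% intervals cover counting error only.

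Aligned reads numbered 30219197 in WT, 35722483 in Chx and 9754412 in Harr, of which 16673134, 20212047 and 3774621 fell in the CDS of the longest transcripts. Each of the 6 neuronal marker genes examined was detected in each library, with a summed level of 3546 to 3968 CDS reads per 1000000 aligned reads. Map2 alone gave 67432 of the 119895 summed reads in WT, 74114 of 136756 in Chx and 28328 of 34587 in Harr. The narrow range of the sum therefore does not hold for each neuronal marker. The summed level was 475 to 999 for 2 GABAergic markers, 78.8 to 213 for 5 astrocyte markers, 23.6 to 43.5 for 5 oligodendrocyte lineage markers, of which Mog and Mobp were at 0 throughout, 1.44 to 2.80 for 4 microglial markers and 13.2 to 26.4 for 4 vascular and stromal markers. Ngfr and the truncated form of TrkB are also made by glial cells, and the part of these cells in the footprints was not tested.

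The sequences around the start codons of the 6 genes are given first, since the 5′ UTR stretches described below are placed by their distance from the start codon. Reads were counted at their 5′ end, which for a ribosome sitting on a start codon lies some bases before it, and reads of initiating ribosomes were therefore counted in the 5′ UTR. The longest Bdnf transcript is an exception, since it starts in exon I and its CDS includes the 21 nt before the start codon that the other transcripts use in exon IX. Each window runs from 12 bases before to 18 bases after the first base of the start codon, taken from GENCODE M21 transcripts (mm10 build), with the ATG in capitals and its genome position before the sequence.
Bdnf exon I, chr2:109675337-109675339, plus strand: agcaaagccacaATGttccaccaggtgaga
Bdnf exon IX, chr2:109723403-109723405, plus strand: gtgagaagagtgATGaccatccttttcctt
Ntf3 upstream exon, chr6:126164745-126164747, minus strand: cacacggatgccATGgttacttctgccacg
Ntf3 main exon, chr6:126102500-126102502, minus strand: gtgaacaaggtgATGtccatcttgttttat
Ntrk2, chr13:58808729-58808731, plus strand: tggcagctcgggATGtcgccctggctgaag
Ntrk3, chr7:78577781-78577783, minus strand: cagcgatcggagATGgatgtctctctttgc
Ngfr, chr11:95587556-95587558, minus strand: cggaggcgagcaATGaggagggcaggtgct
Sort1, chr3:108284141-108284143, plus strand: cattcggcagcgATGgagcggccccgggga
Ntf3 has a pair of annotated starts, and Bdnf has a further one in exon VIII, which had 0 reads and is not shown. A start codon at the end of Bdnf exon I puts a short extension before the protein that begins in the common exon IX.

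The level of each gene was taken as CDS reads per kilobase and per 1000000 aligned reads (RPKM) on its longest transcript. A footprint level combines mRNA amount with ribosome load, and in these pooled dishes fewer cells of a type and less RNA per cell cannot be told apart. Ntrk2 was read at 158 RPKM in WT, 192 in Chx and 128 in Harr, and Bdnf at 128, 162 and 142. These levels placed Ntrk2 above 94.2% and Bdnf above 92.7% of 11459 genes with at least 100 CDS reads in WT.

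Sort1 and Ntrk3 formed the next pair, at 29.5 and 23.4 RPKM in WT, 31.8 and 30.4 in Chx and 33.3 and 27.4 in Harr. Ngfr had 5.10 RPKM in WT, 7.52 in Chx and 3.83 in Harr. Ntf3 was the lowest, at 4.26, 3.39 and 2.24 RPKM from 100, 94 and 17 reads. The order of the genes was the same in WT and Chx, with the intervals of Ngfr and Ntf3 overlapping in WT (4.42 to 5.87 against 3.47 to 5.18) and those of Sort1 and Ntrk3 overlapping in Chx (30.7 to 33.0 against 29.2 to 31.5). In Harr, Bdnf stood above Ntrk2, with intervals of 134 to 151 and 124 to 133. On the 750 nt of CDS that all coding Bdnf transcripts share, without those 21 nt, Bdnf had 114 RPKM in Harr (107 to 122) and stood below Ntrk2, beside 124 in WT and 158 in Chx. In Harr the intervals of Ngfr (2.83 to 5.08) and Ntf3 (1.31 to 3.59) overlapped.

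**Figure D1:**
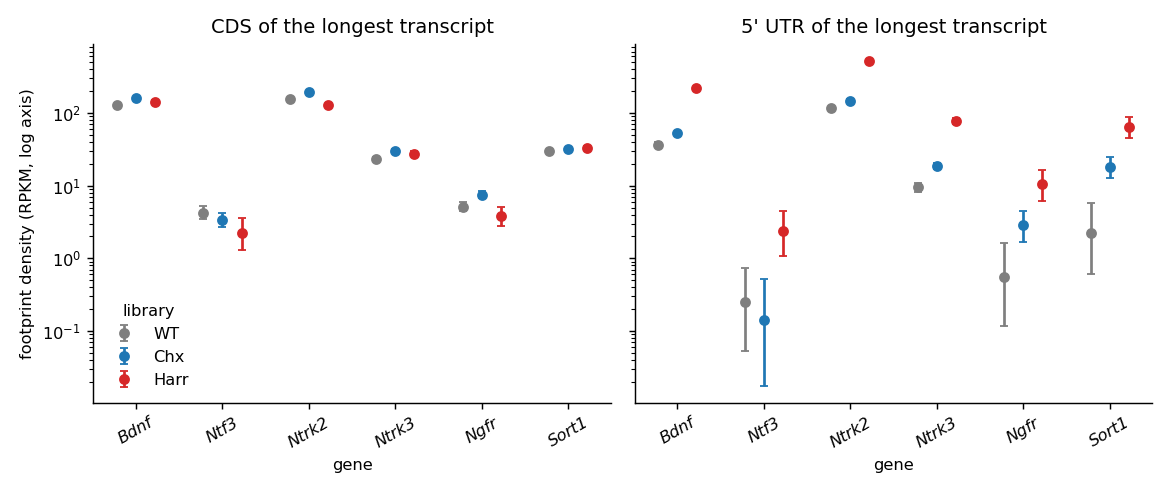
Footprint density (RPKM, log axis) in the CDS (left) and 5′ UTR (right) of the longest transcript of each gene, 1 point per library with its 95% counting interval. The CDS points of each gene differ by less than 2-fold among the 3 libraries, though those of Ngfr reach from 3.83 in Harr to 7.52 in Chx. In the 5′ UTR the Harr point is the highest of the 3 for all 6 genes.

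The first comparison asked how the drugs moved ribosomes between the 5′ UTR and the CDS. In Harr the 5′ UTR held a larger share of the footprints of all 6 genes than in Chx or WT. Its density was 220 RPKM for Bdnf in Harr against 52.6 in Chx and 36.5 in WT, and 514 against 148 and 116 for Ntrk2. Ntrk3 had 77.1, 18.7 and 9.53 RPKM in the 5′ UTR, in the same order of libraries. For Ngfr the 5′ UTR reads numbered 18 in Harr, 18 in Chx and 3 in WT, beside 48, 345 and 198 CDS reads. Sort1, whose 5′ UTR spans 59 nt, had 37, 38 and 4 such reads, and Ntf3 had 9, 2 and 3.

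Expressed as a share of all reads of the transcript, the 5′ UTR of Bdnf held 54.4% in Harr (Wilson 95% interval 52.4 to 56.3), 20.8% in Chx (19.8 to 21.9) and 18.8% in WT (17.5 to 20.0). The Ntrk2 share was 51.1% in Harr, 17.2% in Chx and 16.4% in WT, and that of Ntrk3 was 41.3%, 13.5% and 9.30%. Sort1 had the smallest share, 4.17% in Harr, 1.28% in Chx and 0.173% in WT. Over all genes together the share was 33.5%, 8.71% and 6.14%. The Bdnf, Ntrk2 and Ntrk3 shares were above these in each library, the Sort1 and Ngfr shares below them, and the Ntf3 share below them in Chx and WT. A share also depends on the lengths of the regions. Per base, the 5′ UTR of Bdnf had 1.54, 0.324 and 0.286 times its CDS density in Harr, Chx and WT, below the 3.36, 0.608 and 0.419 of all genes pooled. Ntrk2 lay above the pooled values (4.02, 0.775 and 0.731) and Ntrk3 on both sides of them (2.81, 0.617 and 0.407). Sort1, Ngfr and Ntf3 lay below them in each library.

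The 5′ UTR:CDS ratio of reads, compared between libraries as a log2 odds ratio with 0.5 added to each count, passed 2-fold in Harr over Chx for 6 of 6 genes, where 91.7% of 10806 genes with at least 10 5′ UTR reads passed the same fold. The values were 2.25 for Bdnf (95% interval 2.11 to 2.40), 2.37 for Ntrk2 (2.29 to 2.46) and 2.19 for Ntrk3 (1.96 to 2.42), beside a median of 2.45 over all genes. Ntf3 gave 4.36 (2.22 to 6.50), or 2.50 on the transcript with the most reads and 3.17 with 5 added to each count, Ngfr 2.83 (1.81 to 3.86) and Sort1 1.77 (1.11 to 2.42). All 6 intervals lay above 1, the log2 value of 2-fold, and those of Bdnf, Ntrk3 and Sort1 lay wholly below the median of all genes. For Bdnf this depended on the counting, as its longest transcript counts the reads just before the exon IX start codon as CDS. With all Bdnf 5′ UTR positions set against the CDS that its coding transcripts share, the value was 2.36 (2.22 to 2.50). That interval included the median. This alternative was chosen after seeing the data.

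Against WT, 6 of 6 genes again passed 2-fold in Harr, as did 95.8% of 10384 genes. Sort1 (4.51, interval 3.10 to 5.93) and Ngfr (4.44, 2.73 to 6.14) had the highest values, and Bdnf (2.43, 2.26 to 2.60) and Ntrk2 (2.46, 2.36 to 2.55) the lowest, the median of all genes being 3.23. With 5 added to each count the values of Sort1 and Ngfr were 3.67 and 3.46. Between Chx and WT, 2 of the 5 genes with enough reads passed 2-fold, and 34.7% of 10483 genes did so. These were Sort1 (2.75, interval 1.34 to 4.16) and Ngfr (1.60, interval −0.06 to 3.27), both from fewer than 5 WT reads in the 5′ UTR. With 5 added to each count Sort1 had 1.91 and Ngfr 0.74, so that Ngfr no longer passed 2-fold. Ntrk2 (0.08, 0.00 to 0.17) and Bdnf (0.18, 0.03 to 0.33) lay close to equality and below the median of 0.66, while Ntrk3 had 0.60 (0.33 to 0.86). With the transcript of most reads, 3 genes passed, as Ntf3 then had enough reads and a value of 1.02.

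Bdnf is transcribed from a series of promoters, each of which joins its own 5′ exon to the common exon IX that encodes the protein, and the tables resolve these exons, numbered here in genomic order. Exon I (chr2:109674700-109675336, 637 nt) carried most of the reads. It held 703 reads in WT, 1196 in Chx and 1365 in Harr. Exon IV (chr2:109692436-109692774, 339 nt), the exon whose promoter is best known for answering to calcium, held 286, 327 and 264. Exon VI (347 nt) held 74, 103 and 52 reads and exon II, in its longest form of 499 nt, 43, 103 and 122. Exon III had 8, 10 and 2 reads, exon VII 0, 1 and 0, and exons V and VIII had 0 in each library. A count of 0 allows up to 3 reads, or 0.0993, 0.0840 and 0.308 per 1000000 aligned reads in WT, Chx and Harr. By footprints, exons I and IV thus led, with VI and II behind them.

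Exon I took 63.1% of the 5′ exon reads in WT (Wilson 95% interval 60.2 to 65.9), 68.7% in Chx (66.5 to 70.9) and 75.6% in Harr (73.6 to 77.5), with overlapping forms of exon II merged so that each read counted once. Exon IV took 25.7% (23.2 to 28.3), 18.8% (17.0 to 20.7) and 14.6% (13.1 to 16.3). The exon I interval was therefore highest in Harr and lowest in WT, with no overlap among the 3 libraries, and the exon IV intervals had the opposite order. With overlapping segments counted as listed, exon I took 60.9% in WT (58.1 to 63.7), 64.8% in Chx (62.5 to 66.9) and 70.8% in Harr (68.7 to 72.7), and the WT and Chx intervals overlapped. The 5′ UTR of exon I ends directly at its own start codon, whereas exons II to VIII, other than those of 1 transcript, are separated from theirs by 21 nt of exon IX, and the reads of ribosomes initiating at the annotated start are thus counted inside exon I alone. Their part in the exon I counts was not tested, as exon I is listed as 1 undivided segment. Per base, exon I had 110 reads per 100 nt in WT, against 84.4 for exon IV, 21.3 for exon VI and 8.62 for exon II.

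**Figure D2:**
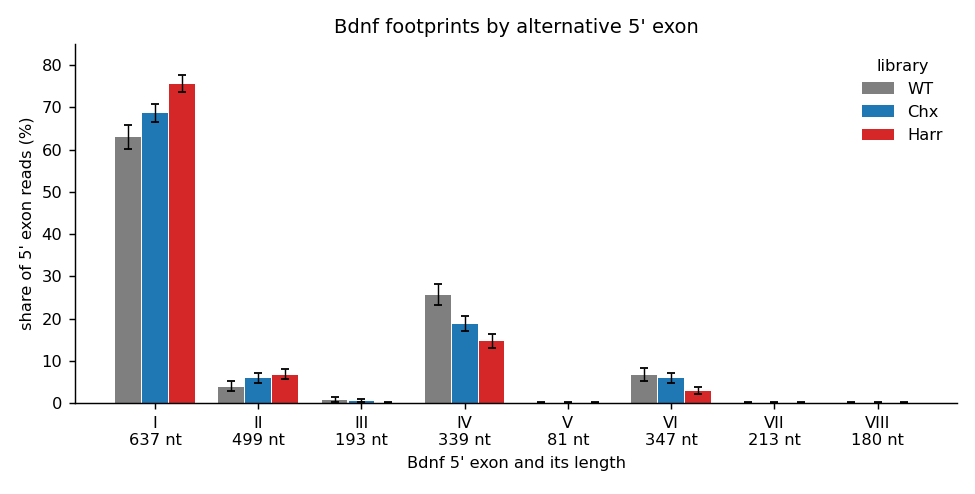
Share of Bdnf 5′ exon reads (%) that fell in each alternative 5′ exon, with its length in nt, in the 3 libraries, and Wilson 95% counting intervals. Exon I holds 63.1% to 75.6% and exon IV 14.6% to 25.7%, while exons III, V, VII and VIII lie near 0.

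Measured against the 750 nt of coding sequence that all Bdnf coding transcripts share (2806, 4223 and 836 reads in WT, Chx and Harr), the exons differed in their ratio of Harr to Chx. The log2 odds ratio of Harr against Chx was 2.53 for exon I (2.37 to 2.68) and 2.58 for exon II (2.19 to 2.97), 2.03 for exon IV (1.77 to 2.28) and 1.36 for exon VI (0.87 to 1.85). The exon I and exon VI intervals did not overlap. The 21 nt of exon IX that precede the common start codon had 180, 268 and 239 reads, a density 2.29 times that of the shared CDS in WT, 2.27 times in Chx and 10.2 times in Harr.

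The exons with most reads also hold upstream ATGs, the starting points of possible short upstream reading frames. The exon I transcript has 6 in its 5′ UTR, the exon IV transcript 4, the exon VI transcript 3 and the exon II transcript read here 1, and all of their reading frames end before the main start codon. Per 100 nt of 5′ UTR these are 0.942, 1.11, 0.815 and 0.192 ATGs, beside 0.851 over the longest transcripts of all genes. A search of the sense strand for the letters ATG found at least 1 in the 5′ UTR of 55.4% of 20690 genes with a sequence. Which of these ATGs carried ribosomes cannot be read from counts per exon.

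Ntf3 was read thinly, but its reads were unevenly placed. The 5′ UTR of the longest transcript comprises an exon of 371 nt with 1, 1 and 9 reads in WT, Chx and Harr and a 21 nt piece with 2, 1 and 0. The 93 nt before the start codon of the other 5′ exon (chr6:126164748-126164840) had 12, 24 and 17 reads. Their density was 1.03 times that of the CDS in WT (0.53 to 1.80), 2.22 times in Chx (1.42 to 3.30) and 8.77 times in Harr (5.11 to 14.0). The footprints thus lay mainly on an exon that the longest transcript does not contain, and the 5′ UTR:CDS values of Ntf3 on the longest transcript leave them out, whereas those on the transcript with the most reads include them. The 3′ UTR of Ntf3 had 0 reads in each library.

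Ntrk2 had the most 5′ UTR reads of the 6 genes, 2308 in WT, 3506 in Chx and 3316 in Harr, and nested transcript ends divide its 5′ UTR into stretches. The 38 nt next to the start codon held 386, 1042 and 664 reads, or 2.13, 4.00 and 14.0 times the density of the CDS. The next 306 nt upstream (chr13:58808385-58808690) held 1796, 1997 and 1831 reads, which is 1.23 times the CDS density in WT (1.17 to 1.29), 0.953 times in Chx (0.912 to 0.996) and 4.79 times in Harr (4.57 to 5.01). The CDS here is that of the full-length transcript, while truncated transcripts also carry this stretch. In WT the stretch had 5.87 reads per nt, close to the 5.92 of the coding segments that the full-length transcript shares with a truncated one. The 104 nt beyond the stretch, annotated only in a truncated transcript, had 0.119, 0.115 and 0.323 times the density of the full-length CDS.

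A pair of upstream ATGs lies in the dense stretch, and their sequences are shown with the ATG in capitals. They are 243 and 207 nt before the start codon in frame with each other, and their reading frames of 17 and 5 codons end at the same stop codon, the last 3 letters of the second window.
Ntrk2 ATG 243 nt upstream, chr13:58808486-58808488, plus strand: gcgtataggactATGcagccgccttgtggc
Ntrk2 ATG 207 nt upstream, chr13:58808522-58808524, plus strand: cagcggcccgcgATGtcccagccactgtga
The counts do not show which bases within the 306 nt the ribosomes occupied.

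The separate first exon of the longest Ntrk2 transcript (chr13:58807697-58808013, 317 nt) was sparse in WT and dense in Harr. It held 126 reads in WT, 467 in Chx and 821 in Harr, and 106, 440 and 787 of them lay in its last 136 nt. The density of these 136 nt was 0.163 times that of the CDS in WT (0.134 to 0.197), 0.473 times in Chx (0.429 to 0.519) and 4.63 times in Harr (4.31 to 4.97). The 2 ATGs of this exon lie in its first 181 nt, which had 20, 27 and 34 reads. Restricted to this exon, the log2 odds ratio of Harr against WT was 4.63 and that of Chx against WT 1.37, compared with 2.46 and 0.08 for the whole 5′ UTR.

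Ntrk3 showed the same concentration at the start codon. The last 15 nt of its 5′ UTR, 2 stretches of 6 and 9 nt, held 61 of 180 reads in WT, 183 of 418 in Chx and 171 of 470 in Harr. Their densities were 7.07 and 4.87 times that of the CDS in WT, 11.7 and 11.0 times in Chx and 36.2 and 47.0 times in Harr. The next 184 nt were sparse, with 43, 35 and 38 reads, and the 426 nt at the 5′ end held 76, 200 and 261. In Harr this distal stretch stood at 2.29 times the CDS density (2.02 to 2.59) and the sparse one at 0.773 times (0.547 to 1.06). In Chx they had 0.433 (0.375 to 0.497) and 0.175 times (0.122 to 0.244), and in WT 0.252 and 0.331 times, where alone the intervals overlapped.

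The Ntrk3 5′ UTR has 3 upstream ATGs. Those 469 and 248 nt before the start codon lie in the distal stretch, the first with a stop codon directly behind it and the second with a frame of 7 codons. The ATG 183 nt upstream, with 10 codons, lies in the sparse one.
Ntrk3 ATG 469 nt upstream, chr7:78578250-78578252, minus strand: ccgcgcgtgtgtATGtgagtgtgtgcgagt
Ntrk3 ATG 248 nt upstream, chr7:78578029-78578031, minus strand: gagccggccaccATGcccggcagaccgcgc
Ntrk3 ATG 183 nt upstream, chr7:78577964-78577966, minus strand: gcggcggccgcgATGgtttccgacgctgaa
The 5′ UTRs of Ngfr and Sort1 hold 0 ATGs, and both were among the genes that passed 2-fold in Harr over Chx.

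**Figure D3:**
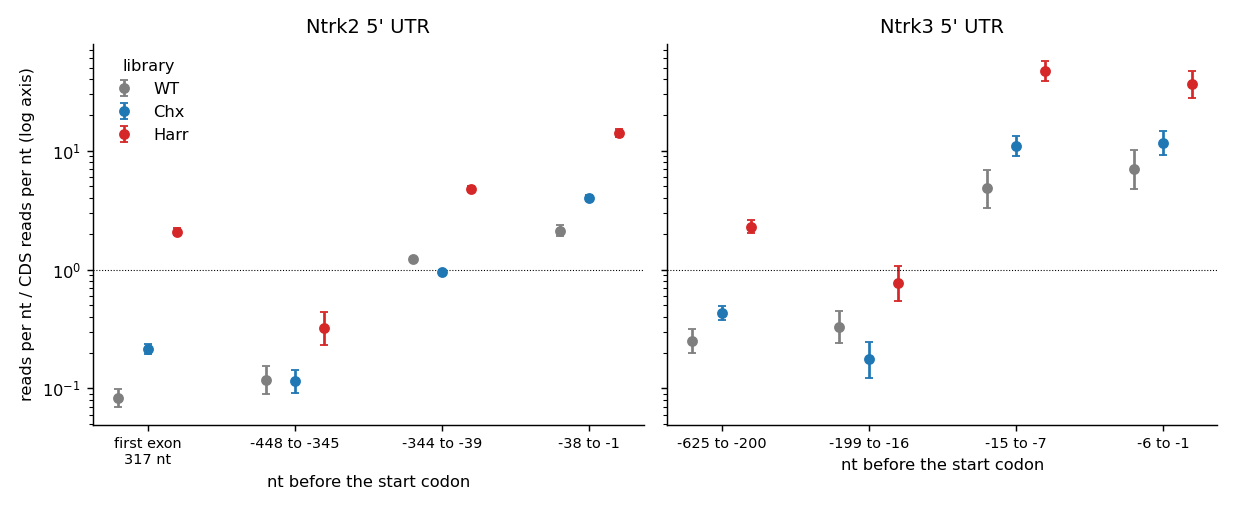
Read density in stretches of the Ntrk2 (left) and Ntrk3 (right) 5′ UTR, divided by the density of the CDS (log axis, dotted line at equal density), with 95% counting intervals of the 5′ UTR count. Positions are in nt before the start codon. The 38 nt next to the Ntrk2 start codon and the last 15 nt of the Ntrk3 5′ UTR are denser than the stretches upstream of them in each library, and the Harr points lie above the Chx and WT points in each stretch.

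The second comparison was of CDS levels, scaled per 1000000 CDS reads. None of the 6 genes differed 2-fold in any pair of libraries, where 18.7% of 11459 genes did so between Harr and Chx, 20.0% between Harr and WT and 0.323% between Chx and WT. In Harr, levels followed the length of the CDS: the median log2 ratio of Harr against Chx was −0.54 for genes with a CDS of 600 to 1200 nt and 0.36 for those of 2000 to 4000 nt. Bdnf, with a CDS of 774 nt, had a log2 ratio of 0.36 (0.26 to 0.45), which was 0.90 above the median of its length class and above 89.3% of the 3144 genes in it. On the shared 750 nt of Bdnf, an alternative chosen after seeing the data, the ratio was 0.08 (−0.02 to 0.19), 0.62 above the class median and above 81.0% of its genes. Sort1 had 0.62 (0.51 to 0.73), 0.25 above its class, and Ntrk3 had 0.40 (0.28 to 0.52), 0.04 above it.

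Ntrk2 had −0.03 (−0.09 to 0.02), which was 0.40 below the median of 2649 genes of its length and above 16.6% of them. Ngfr had −0.41 (−0.85 to 0.02), 0.35 below its class, and Ntf3 −0.01 (−0.75 to 0.72), 0.53 above it, with intervals that included 0. Scaling by aligned reads lowered the median of all genes to −0.60 from −0.05 and turned the Bdnf and Ntrk3 values to −0.19 and −0.15, without moving any of the distances from the medians. Against WT, a pair that shares the Harr library with the former, Bdnf lay 1.19 (0.92 on the shared 750 nt), Sort1 0.24, Ntrk3 0.29, Ntf3 0.14 and Ngfr 0.12 above the median of the length class, and Ntrk2 0.24 below it.

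Between Chx and WT, Ngfr (0.52, 0.27 to 0.77), Ntrk3 (0.34, 0.25 to 0.43), Bdnf (0.31, 0.24 to 0.38) and Ntrk2 (0.24, 0.21 to 0.27) were higher in Chx, each by less than 2-fold, and the intervals of Sort1 (0.07, −0.01 to 0.15) and Ntf3 (−0.37, −0.77 to 0.04) included 0. The median of all genes was 0.03.

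Position along the CDS showed what the gene totals average out. Each coding exon was placed at the distance from its midpoint to the start codon, and the first of 3 equal parts of the CDS was compared with the last. In Harr against Chx the first part was at least 2-fold lower for Ntrk2, Ntrk3 and Sort1 and not for Ngfr, which is 3 of 4 genes with enough reads, while 45.8% of 9093 genes passed the same fold. The first part of Ntrk2 held 5072 reads in WT, 7684 in Chx and 549 in Harr, and the last part 3059, 4677 and 1383. The log2 odds ratio of first against last was −2.05 (−2.20 to −1.90), beside a median of −1.59 for genes of this length. Sort1 had −2.01 (−2.39 to −1.63) and Ntrk3 −1.83 (−2.17 to −1.50).

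The first 300 nt of Sort1 had 170 reads in WT, 291 in Chx and 35 in Harr, and the first 212 nt of Ntrk2 2364, 3962 and 233. In Harr against WT, a pair with the same Harr library, Ntrk2, Ntrk3 and Sort1 passed 2-fold, as did 44.4% of 8910 genes, and in Chx against WT 0 did, as against 1.68% of 9545 genes. With the CDS split into 2 parts the Sort1 value for Harr against WT was −0.96, short of 2-fold. Ngfr lay on the other side of 0: its value for Harr against Chx was 0.47 (−0.63 to 1.58), and 22 of its 48 Harr CDS reads lay in the first coding segment of 75 nt. That segment had 7 reads in WT and 40 in Chx. Bdnf and Ntf3 are encoded almost wholly in 1 exon and had too few coding segments for this split.

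**Figure D4:**
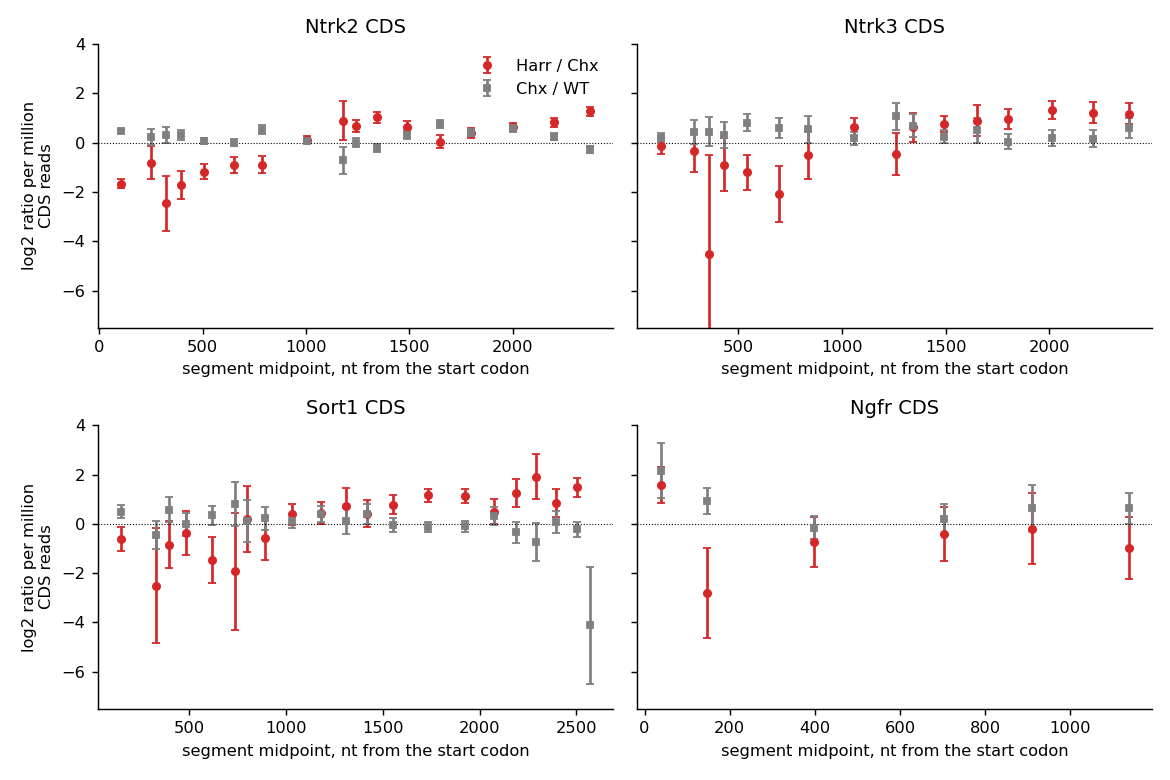
Log2 ratio of reads per 1000000 CDS reads for each coding segment with at least 20 reads in the pair, placed by its midpoint in nt from the start codon, for Harr against Chx (circles) and Chx against WT (squares), with 95% counting intervals. The Harr against Chx points of Ntrk2, Ntrk3 and Sort1 lie mostly below 0 near the start codon and mostly above 0 toward the end of the CDS; the lower end of 1 Ntrk3 interval lies off the axis.

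TrkB and TrkC are each made as a full-length receptor with a kinase domain and as truncated receptors that share the outer part of the protein but lack the kinase. For Ntrk2 the segments common to the full-length transcript and the truncated one known as T1 (1393 nt) held 5.92 reads per nt in WT, 8.24 in Chx and 1.07 in Harr. Those found only in the full-length transcript (1073 nt) held 3.30, 5.03 and 1.49. Their density was thus 0.557 times that of the shared segments in WT (0.536 to 0.580), 0.611 times in Chx (0.591 to 0.631) and 1.39 times in Harr (1.30 to 1.50). The ratios of Ntrk3 were 0.762 (0.688 to 0.843), 0.689 (0.633 to 0.749) and 1.53 (1.32 to 1.79). The shared segments lie nearer the start codon, and the lower density near the start in Harr moves with the higher ratio there. In WT and Chx the first 212 nt of the Ntrk2 CDS, which belong to the shared segments, were dense instead, at 11.2 and 18.7 reads per nt. The part of position along the CDS in the ratios was not tested.

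The truncated receptors were also read. The single coding segment that annotation gives to T1 and not to the full-length transcript (38 nt, chr13:58932023-58932060) had 98 reads in WT, 54 in Chx and 18 in Harr. Its density was 0.781 times that of the full-length-only segments in WT (0.639 to 0.955), 0.282 times in Chx (0.216 to 0.369) and 0.319 times in Harr (0.200 to 0.507). The WT interval lay above both others. This segment ends with the stop codon of the truncated form, and short last coding segments were richer in WT than in Chx over the transcriptome: the log2 odds ratio of the last segment against the rest of the CDS had a median of 1.19 over 889 genes whose last segment measures 10 to 60 nt, and it was 1.33 for the truncated Ntrk2 segment. The part of this end effect in the WT value was not tested. The 2 segments that annotation gives to truncated and not to full-length Ntrk3 (254 nt) had 40, 66 and 24 reads, 0.267 times the density of the full-length-only segments in WT (0.194 to 0.369), 0.309 times in Chx (0.240 to 0.397) and 0.275 times in Harr (0.181 to 0.416), with overlapping intervals.

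Rarer forms left few reads. A coding segment of 86 nt in another truncated Ntrk2 transcript had 12, 6 and 8 reads in WT, Chx and Harr, or 5.47%, 1.82% and 8.29% of the density of the next coding segment of the full-length transcript, and those of 8 and 77 nt in 2 more had at most 1. In the kinase part of Ntrk3, an insert of 42 nt (14 codons) had 2, 7 and 0 reads, which is 7.65% (0.926 to 27.6), 19.5% (7.85 to 40.2) and 0% (up to 23.0) of the density of its neighbours. A second insert of 75 nt (25 codons) had 4, 0 and 0.

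Sort1 has an alternative coding exon of 99 nt (chr3:108355472-108355570, 33 codons) near its 3′ end, whose skipping is known to depend on the RNA-binding protein TDP-43. It was read 32 times in WT, 23 times in Chx and 16 times in Harr. Relative to the 2 coding exons on either side, its density was 43.6% in WT (29.8 to 61.6), 28.4% in Chx (18.0 to 42.5) and 52.1% in Harr (29.8 to 84.6). The intervals overlapped among the libraries and lay below 100% in each. Reads in this exon can also come from an annotated transcript that keeps the intron behind it and in which it is 3′ UTR. The last 15 nt of the Sort1 CDS had 21 reads in WT, 1 in Chx and 3 in Harr, a log2 odds ratio of WT against Chx of 4.20 (SE 1.22).

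**Figure D5:**
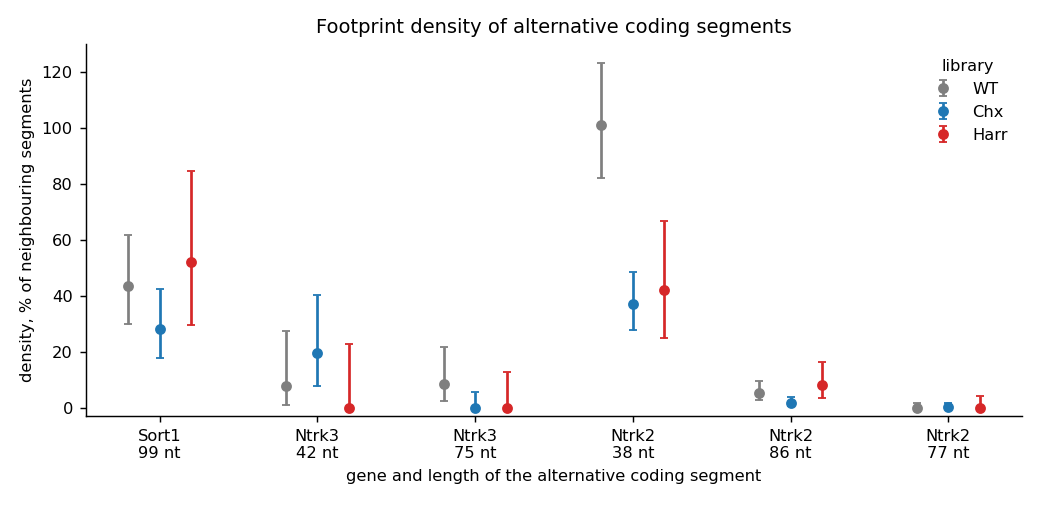
Density of alternative coding segments of Sort1, Ntrk3 and Ntrk2 as a percentage of the density of the neighbouring coding segments on either side (Sort1 and Ntrk3) or of the next segment of the full-length transcript (Ntrk2), with 95% counting intervals of the segment's reads. The 38 nt Ntrk2 segment of truncated TrkB stands at 101% in WT and 37.1% in Chx, and the 99 nt Sort1 exon at 28.4% to 52.1%.

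The 3′ UTRs were nearly empty. Ntrk2 had 19 reads over 5617 nt in WT, 26 in Chx and 98 in Harr, and Bdnf 60, 55 and 71 over 2855 nt. Ntrk3 had 3, 0 and 7 over 16600 nt, Sort1 13, 6 and 12, and Ngfr 0, 0 and 1. Per base the 3′ UTR density of Bdnf was 0.545% of its CDS density in WT, 0.332% in Chx and 1.79% in Harr, below the 2.50%, 2.00% and 6.92% of all genes pooled.

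The wider pathway was represented by 42 genes, of which 34 had at least 100 CDS reads. The ligand Ntf5 (neurotrophin 4/5) had 0, 2 and 0 CDS reads in WT, Chx and Harr. Plg, the precursor of plasmin that can cleave proBdnf, had 0 reads in each library, and Nradd, a p75NTR-like protein, had 26, 37 and 0 CDS reads beside 3, 3 and 9 in its 5′ UTR. For Harr against Chx 0 of the 34 genes were 2-fold higher in the CDS and 3 were 2-fold lower, where 18.7% of all genes passed in either direction, with a median log2 ratio of 0.15, beside −0.05 over all genes. The lowest were the adaptor Grb2 (−2.02 ± 0.13, SE) and the p75NTR partner Traf6 (−1.57 ± 0.46), and the highest the sortilin relatives Sorcs2 (0.98 ± 0.03) and Sorcs1 (0.80 ± 0.12). CDS levels in Harr followed CDS length, and the pathway values against Chx and WT were not set against genes of the same length.

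For Harr against WT 2 were 2-fold higher, Sorcs2 (1.08 ± 0.04) and Sorl1 (1.02 ± 0.07), and 3 lower, with Grb2 (−1.95 ± 0.13) and Bex3 (−1.81 ± 0.06) at the bottom, beside 20.0% of all genes in either direction. For Chx against WT 0 passed 2-fold, as did 0.323% of all genes, the range running from Bex3 (−0.41 ± 0.02) to Rtn4r (0.50 ± 0.11) and the proneurotrophin convertase Furin (0.57 ± 0.12). The 5′ UTR:CDS ratio passed 2-fold in Harr over Chx for 33 of 35 counted genes and in Harr over WT for 31 of 33, near the 91.7% and 95.8% of all genes. It was highest, apart from Nradd, for Hap1, a partner in the transport of proBdnf (4.82 ± 0.56 against Chx), and for Traf6 (5.55 ± 0.70 against WT), and lowest for Ripk2 (0.45 ± 1.32) and Rapgef1 (0.97 ± 0.25) against Chx and for Furin (0.79 ± 0.37) and Kidins220 (0.84 ± 0.09) against WT.

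Between Chx and WT 13 of 33 genes were 2-fold higher, led by the protease Plat (2.97 ± 0.72) and by Rapgef1 (2.27 ± 0.37), and 1 was 2-fold lower, the Trk scaffold Kidins220 (−1.27 ± 0.09), followed by Hap1 (−0.84 ± 0.61). Of all genes, 34.7% were 2-fold higher and 1.94% 2-fold lower. Kidins220 had 859 5′ UTR reads in WT, 481 in Chx and 546 in Harr.

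The genes whose pattern over the 3 libraries was most like that of each member were found by the distance over 6 values, the centred log2 CDS levels and the log2 5′ UTR:CDS ratios, among 11459 genes. They were Bbs9 (0.238) and Tle4 (0.252) for Bdnf, Nat8l (0.204) and Avl9 (0.212) for Ntrk2, Coasy (0.280) and B3gat3 (0.289) for Ntrk3, and Ptchd1 (0.0858) and Xkr6 (0.384) for Sort1. Pdcd2l (0.363) and Ttc8 (0.405) were nearest to Ngfr, and Pgm2 (0.492) and Sostdc1 (0.566) to Ntf3, whereas the median distance of all genes from a member was 2.78 to 6.74. The 5′ UTR:CDS ratios were not centred, and no minimum of 5′ UTR reads was set for them. Ptchd1 had 0, 4 and 4 such reads in WT, Chx and Harr and Xkr6 0, 5 and 5, so that the 0.5 added weighs on their distances.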

How the data were processed

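Groups were taken from the treatment field of the labels, since the free-text descriptions name cell fractions of another experiment. The authors deposited, for each library and each of 3 regions, a Plastid table with 1 line per exon segment of a transcript (9 tables). Its deposited columns are whole raw counts, the coverage signal (counts per nucleotide) and RPKM, which was not used as deposited. Per the file headers, reads of 25 to 100 nt were counted at their 5′ end with an offset of 0, on mm10 alignments cleared of ribosomal reads and duplicates. Reads in segments shared by transcripts are counted in each of them. The methods name an mm10 alignment with Rsubread and, for reading frames, a TopHat alignment that let a read have several hits; which of them was counted is not given in the sources used here. Of the 25-nt words of the members' longest transcripts, 0% (Ntf3) to 1.25% (Bdnf) also occur in transcripts of other genes.

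Counts alone were used. Identifiers were joined to GENCODE M21 (99.4% of 142446 matched with or without their version), and the longest transcript of each gene was taken. RPKM was recomputed from counts, lengths and the header totals. Ratios had 0.5 added to each count, at least 10 5′ UTR reads in the pair or 100 CDS reads over 3 libraries (20 in each of the compared parts of a CDS), and counting intervals at the 95% level. A gene was counted past a threshold at 2-fold. With 1 library per treatment there was no test. The scripts were tested on simulated data. Members, gene lists and thresholds were chosen with earlier results of these data known. The genes named were all members, of 42 pathway genes those with 0 CDS reads in a library and the 2 highest and 2 lowest of each ratio, and the 2 nearest genes of each member. Some genes that this rule names are not reported here. Alternatives were another pseudocount, transcript, scaling, read minimum, 5′ UTR part and way of splitting the CDS. Analyses used Python, NumPy, pandas and SciPy.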

Additional observations from a re-analysis of the deposited data

How the results depend on the processing

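No paired analysis was possible because each treatment has 1 library. Of 54 alternative values of gene counts, density ratios and exon shares, 46 stayed within 1.5 times the count of genes or inside the 95% interval of the density ratio or share (for Bdnf exon I, the share with segments as listed). The number of genes with a 2-fold higher 5′ UTR:CDS ratio became 2 in Harr over Chx, 2 in Harr over WT and 1 in Chx over WT when only 5′ UTR segments away from the start codon were counted, which only Ntrk2 and Ntf3 have. With a minimum of 50 reads it became 3 in Harr over WT and 0 in Chx over WT, as fewer genes were counted, and with a pseudocount of 5 it became 1 in Chx over WT. The exon I share of Bdnf reads was 64.8% in Chx and 70.8% in Harr with segments as listed, and 68.7% and 75.6% with overlapping segments merged. Of 120 alternative values of single genes, 103 stayed inside the 95% interval of the reported value; most of the others were CDS ratios scaled by aligned reads. No value past 2-fold changed sign. With all Bdnf 5′ UTR positions set against the shared CDS, an alternative chosen after seeing the data, the log2 odds ratio of Harr against Chx was 2.36. Its 95% interval of 2.22 to 2.50 included the median of all genes, whereas that of the longest transcript lay below it. With genes whose UTRs overlap no CDS, the share of all genes past 2-fold in that pair was 92.9%. Depth limits Ntf3 and Ngfr most, with 17 and 48 CDS reads in Harr.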
